A study of Rattus norvegicus with 6 samples.

Results

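The subfornical organ of the rat was set against total brain to describe what a dissected circumventricular organ holds relative to brain tissue at large. The comparison used 2 of the 6 arrays of the series, 1 for each tissue, and every probe listed with a single gene symbol, which was 16865 of 35129 probes and gave 12167 genes with a value on all 6 arrays. Both RNA samples came from normal adult male rats of the Sprague-Dawley strain. The subfornical organ sample was a pool of 2, and the labels do not say whether animals or captures were pooled. The total brain sample was a pool of normal brains, of a number that the labels do not give. The organ was cut out by laser capture, in which an infrared beam fuses chosen parts of a tissue section to a film. The protocols describe such capture for the dissected structures and not for total brain, so the tissue and its handling cannot be told apart in this comparison. The remaining arrays, which carried the ependyma of the third ventricle, the subcommissural organ and the pineal gland (2 arrays), show the level of a gene elsewhere. The pineal gland pair also gives a spread, and the floor, the filter and the choice of probe below use all 6 arrays.

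The subfornical organ hangs from the underside of the fornix into the third ventricle. Its capillaries are fenestrated and lack the tight barrier of other brain vessels, so its neurons and glia meet peptides and salts of the blood. Neurons of the organ respond to angiotensin II and to sodium and drive thirst, salt appetite and the release of vasopressin. An ependymal sheet with cilia covers the side that faces the ventricle, and astrocytes, tanycyte-like cells, microglia and perivascular macrophages lie beneath it.

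A probe is a short DNA strand that captures the RNA of 1 gene, and its intensity rises with the amount of that RNA. Values below 0.142, the 5th percentile over all arrays, were raised to that floor before log2 was taken. Each gene was read from the brightest of its probes, and a gene counted as measured when the higher of both tissues reached 1.05, the median over all arrays. Where the lower tissue was under 1.05, a fold is given against 1.05 as a bound, written as at least so many fold. Intensities of different probes depend on the probe and are not set against each other. With 1 array per tissue there is no replicate of the comparison and no test, so differences are described by size.

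The subfornical organ and total brain lay at least 4-fold apart for 1542 of 9166 measured genes (16.8%). They split into 659 genes (7.19%) that were higher in the subfornical organ and 883 (9.63%) that were lower. These counts use the floored values. With the lower tissue raised to at least 1.05, the bound given above, 388 genes (4.23%) were higher and 654 (7.14%) were lower. Counts at 4-fold in the gene lists below use the floored values too, with the count by the bound beside them where it is smaller, and they are to be read against these shares of all measured genes. The pair of pineal gland arrays, the one repeated tissue of the series, differed at least 4-fold for 245 of 8553 genes (2.86%). That pair had a standard deviation of 0.77 for its log2 difference, against 1.58 for the subfornical organ minus total brain. Among genes with a mean above the 75th percentile, 9.42% differed at least 4-fold between the subfornical organ and total brain, and 0.239% between the pineal gland arrays. Among genes with a mean under the pooled median the share was 44.0% between the subfornical organ and total brain and 29.0% between the pineal gland arrays, so dim genes often differed that much within a repeated tissue. The median difference over all measured genes was -0.20 on the log2 scale, and 0.06 after the arrays were brought to 1 common distribution by quantile normalization. List medians below are read beside that value of -0.20. Precision is limited by having so few arrays, and in these tissue samples fewer cells of a type and less RNA per cell cannot be told apart.

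**Figure D1:**
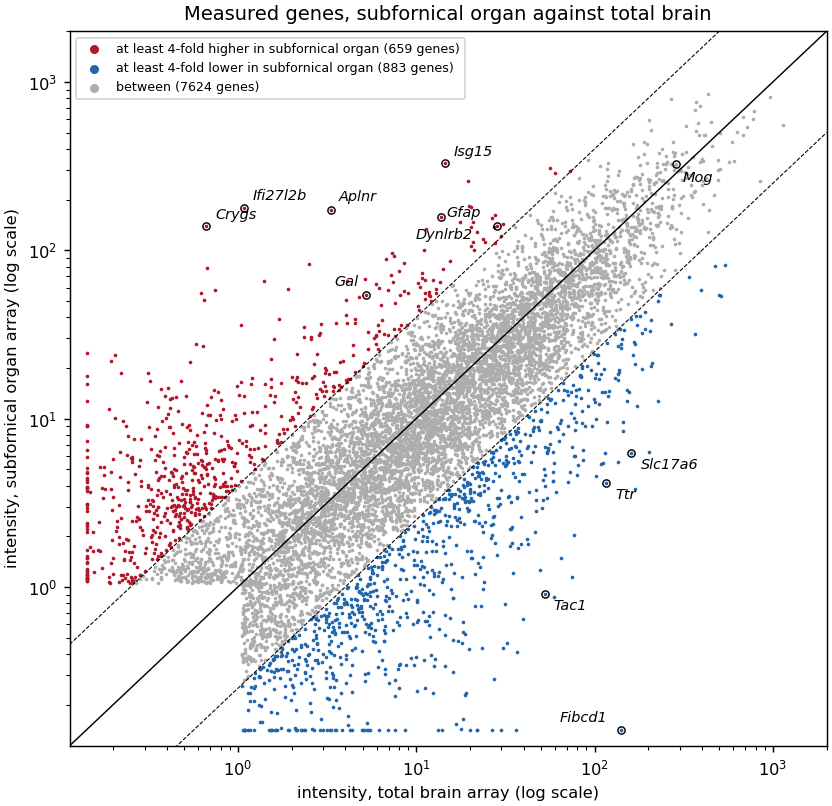
Intensity of each of 9166 measured genes on the subfornical organ array (vertical axis) and on the total brain array (horizontal axis), both on log scales, with values under the floor drawn at it. The solid line marks equal levels and the dashed lines a 4-fold difference; 659 genes lie above the upper dashed line and 883 below the lower one.

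**Figure D2:**
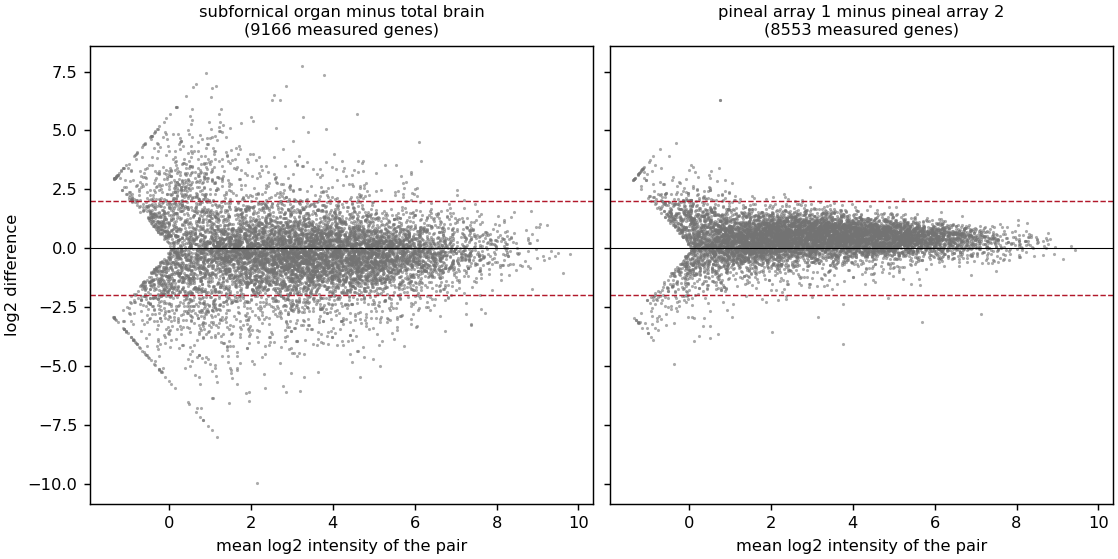
Difference in log2 intensity (vertical axis) against mean log2 intensity (horizontal axis) for the subfornical organ minus total brain (left, 9166 genes) and for the first minus the second pineal gland array (right, 8553 genes), with dashed lines at 4-fold. Differences beyond 4-fold reached 16.8% of genes on the left and 2.86% on the right, and on the right most of them were at low mean intensity.

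Larger differences were common in both directions. Between 4-fold and 8-fold there were 355 higher and 522 lower genes, and at 32-fold or more there were 42 higher and 53 lower. The subfornical organ was the highest of the 6 arrays for 380 of the 659 higher genes (57.7%), and total brain was the lowest for 372 of them (56.4%). Of the 883 lower genes, the subfornical organ was the lowest array for 399 (45.2%) and total brain the highest for 676 (76.6%). Choosing genes by their difference raises these shares by itself, so they only describe where the other dissected tissues lay, and levels there are given beside the values below. Over all 9166 measured genes the subfornical organ was the highest array for 20.6%, and total brain was the highest for 33.2%. Counts of highest arrays in the gene lists are to be read against this pair of shares.

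The label was checked against genes known for this organ, and the array bore it out only in part. Scn7a, the sodium-gated channel by which glia of the organ sense salt, was at 3.41 in the subfornical organ, -0.054 in the ependyma, 0.140 in the subcommissural organ, 18.0 and 9.42 on the pineal gland arrays and 0.573 in total brain, at least 3.24-fold above total brain. Agtr1a, the receptor for angiotensin II, was at 1.96 in the subfornical organ, 0.442 in the ependyma, 0.779 in the subcommissural organ, 4.95 and 2.65 in the pineal gland and 5.33 in total brain. It was thus above both other ventricular tissues and 2.73-fold below total brain. Nos1, the neuronal nitric oxide synthase of angiotensin-responsive neurons of the organ, was under the pooled median at 0.771 in the subfornical organ, against 1.39 in total brain. Plvap, which forms the diaphragms of fenestrated capillaries, was at 3.36 in the subfornical organ, 3.35 in the ependyma, 3.11 in the subcommissural organ, 17.7 and 15.6 in the pineal gland and 13.0 in total brain, 3.87-fold below total brain. Tph1, which makes serotonin in the pineal gland, was at 0.475 in the subfornical organ, 547 and 352 in the pineal gland and 1.91 in total brain.

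The genes that stood furthest above total brain included a lens protein, interferon-induced genes and a peptide receptor. Crygs encodes gamma-S crystallin, a structural protein of the eye lens. It was at 138.7 in the subfornical organ, 0.386 in the ependyma, 0.737 in the subcommissural organ, 0.139 and 0.171 in the pineal gland and 0.661 in total brain, so that no other array reached the pooled median and the organ was at least 131.9-fold above total brain. Ifi27l2b belongs to a family of interferon-induced mitochondrial proteins. It was at 178.9 in the subfornical organ, 2.82 in the ependyma, 9.43 in the subcommissural organ, 20.8 and 21.0 in the pineal gland and 1.08 in total brain, a 165-fold difference with every dissected tissue above total brain. Aplnr, the receptor of the peptide apelin, which acts on vessels and on fluid balance, was at 173 in the subfornical organ, 1.78 in the ependyma, 0.293 in the subcommissural organ, 43.7 and 19.1 in the pineal gland and 3.33 in total brain. It was 52.1-fold above total brain by its brightest probe, and by 1.66 on the log2 scale, under 4-fold, with the mean of all its probes. The pineal gland was the next highest tissue for Aplnr.

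Several of the leading genes were far lower on every other array. Rgs19, which shortens signals of G proteins, was at 65.9 in the subfornical organ and between 0.415 and 1.05 in the dissected tissues, against 1.40 in total brain, a 47.1-fold difference. Vax1, a homeobox factor of the ventral forebrain and optic stalk, was at 27.9 in the subfornical organ, 3.20 in the ependyma, 0.100 in the subcommissural organ, 0.148 and 0.399 in the pineal gland and 0.580 in total brain, at least 26.5-fold above total brain. Kiss1, the precursor of the kisspeptins that stimulate the release of gonadotropin-releasing hormone, was at 18.6 in the subfornical organ and at most 0.916 on any other array, with 0.312 in total brain. It was at least 17.6-fold above total brain. Cldn19, a tight junction protein, was at 39.1 in the subfornical organ, 0.970 in the ependyma, 0.188 in the subcommissural organ, 5.03 and 4.31 in the pineal gland and 1.69 in total brain, a 23.1-fold difference. Cbs, which makes cystathionine from homocysteine and can release hydrogen sulfide, was at 58.5 in the subfornical organ and at most 5.25 elsewhere, with 1.90 in total brain. Both of its measured probes were higher in the subfornical organ, and the brighter by 30.7-fold. The log2 difference of Cbs, 4.94 by that probe, was 3.03 with the mean of all its probes.

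Other leading genes were high in several dissected tissues, and total brain was the array that stood apart. Atg101, a subunit of the complex that starts autophagy, was at 58.4 in the subfornical organ, 58.4 in the ependyma, 74.1 in the subcommissural organ, 63.3 and 54.1 in the pineal gland and 0.743 in total brain. Plekhn1 was at 27.1 in the subfornical organ, 21.8 in the ependyma, 45.8 in the subcommissural organ, 46.0 and 51.0 in the pineal gland and 0.640 in total brain. Enkd1, a protein of microtubules and the base of cilia, was at 35.8 in the subfornical organ, 62.6 in the ependyma, 103 in the subcommissural organ, 15.5 and 18.1 in the pineal gland and 1.04 in total brain. These differences of at least 55.6-fold, 25.8-fold and 34.1-fold from total brain say nothing particular of the subfornical organ.

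At the other end, the genes furthest below total brain included genes of neurons and of particular neuron groups. They also held Atp6v0e2 and Ttr, given below, and Wnt9b, at 0.43 in the subfornical organ against 30.7 in total brain. Fibcd1, a chitin-binding receptor that marks hippocampal pyramidal cells in the mouse, was at 0.107 in the subfornical organ, 4.60 in the ependyma, 0.257 in the subcommissural organ, 0.343 and 0.311 in the pineal gland and 141 in total brain, at least 134-fold lower in the subfornical organ. Cplx1, which clamps synaptic vesicle fusion, was at 3.81 in the subfornical organ against 169 in total brain, 44.2-fold lower, and both of its probes ran the same way. Hapln4, which anchors perineuronal nets, was at 1.49 in the subfornical organ against 65.1 in total brain, 43.8-fold lower. Atp2b2, a calcium pump of neurons, was at 5.53 in the subfornical organ, 53.2 in the ependyma, 4.54 in the subcommissural organ, 16.7 and 9.95 in the pineal gland and 134.8 in total brain. Ckmt1, the mitochondrial creatine kinase of energy-demanding tissue, was at 6.37 in the subfornical organ, 31.0 in the ependyma, 26.3 in the subcommissural organ, 40.6 and 36.5 in the pineal gland and 202 in total brain, where it was 31.7-fold above the subfornical organ, the lowest of the 6 arrays.

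Of 19 measured neuronal markers, 16 were at least 4-fold lower in the subfornical organ (14 by the bound) and none was at least 4-fold higher. All 19 were below total brain, with a median of -3.25 on the log2 scale, and -2.47 without the filter on low values. Of the 24 with a probe, 5 were under 1.05 in total brain and 11 in the subfornical organ. Some markers thus counted as measured only through total brain. Among the 6 arrays, 15 of the 19 were highest in total brain, against 33.2% of all measured genes. Slc17a6, which loads glutamate into vesicles of subcortical neurons, was at 6.26 in the subfornical organ, 44.8 in the ependyma, 8.63 in the subcommissural organ, 94.1 and 53.5 in the pineal gland and 161 in total brain. It was 25.7-fold lower in the subfornical organ than in total brain, and the subfornical organ was the lowest of the 6 arrays. Camk2a, a kinase of excitatory synapses, was at -0.158 in the subfornical organ against 22.0 in total brain, at least 20.9-fold lower. Nefl, a subunit of the neurofilaments of axons, was at 1.80 in the subfornical organ against 38.6 in total brain, 21.5-fold lower. The genes of inhibitory neurons went the same way: Slc32a1, which loads GABA into vesicles, was at 0.720 in the subfornical organ against 7.33 in total brain, and Gad2, which makes GABA, was at 0.193 in the organ against 3.42 in total brain, at least 3.25-fold lower. The probe of Snap25 was near background in both, with 0.748 in the subfornical organ and 0.570 in total brain, and gave no information on neurons.

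Summed over the 24 neuronal markers with a probe, intensity was 391 in the subfornical organ, 461 in the ependyma, 240 in the subcommissural organ, 706 and 477 in the pineal gland and 1781 in total brain. By this sum, in which bright probes weigh most, the subfornical organ lay below total brain and within the range of the other dissected tissues. Gene by gene, it was above the ependyma for 3 of the 19 measured markers (15.8%, against 57.4% of all measured genes). It was above the subcommissural organ for 14 (73.7%, against 54.2%) and above each pineal gland array for 8 (42.1%, against 53.1% and 67.2%). Thy1 (53.5 in the subfornical organ and 509 in total brain) and Eno2 (69.1 in the subfornical organ and 340.4 in total brain), genes of neurons in general, stayed well above background in the organ.

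Receptors and channels followed the neuronal markers. Of 24 measured, 13 were at least 4-fold lower in the subfornical organ (11 by the bound) and none was higher by that much. Their median was -2.36, and -1.38 without the filter on low values. Of the 41 with a probe, 17 were under 1.05 in total brain and 23 in the subfornical organ. Some of these genes thus counted as measured only through total brain. Grin1, the shared subunit of NMDA receptors, was at 14.7 in the subfornical organ, 26.4 in the ependyma, 39.7 in the subcommissural organ, 0.435 and 0.931 in the pineal gland and 151 in total brain, 10.3-fold lower than total brain with all 3 of its probes in the same direction. Gabrb2, a subunit of the GABA-A receptor, was at 0.229 in the subfornical organ against 18.8 in total brain, at least 17.9-fold lower. Gria3, an AMPA receptor subunit, was at 1.83 in the subfornical organ against 34.5 in total brain, 18.8-fold lower. Kcnd2, a potassium channel of dendrites, was at 2.02 in the subfornical organ and 26.6 in total brain, yet at 44.8 and 16.2 in the pineal gland.

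Markers of neurons from other brain regions were checked for tissue outside the organ. Of 15 measured, 7 were at least 4-fold lower in the subfornical organ (6 by the bound) and none was at least 4-fold higher. The median was -1.55, with -0.84 without the filter on low values and -2.45 with the filter at the 75th percentile. Of the 25 with a probe, 12 were under 1.05 in total brain and 16 in the subfornical organ. Some of these markers thus counted as measured only through total brain. Pde10a, the phosphodiesterase of striatal neurons, was at 9.08 in the subfornical organ against 96.4 in total brain, 10.6-fold lower. Drd2, a dopamine receptor of the striatum, was at 5.16 in the subfornical organ, above the 0.297 to 3.74 of the other dissected tissues, and at 21.8 in total brain, a difference of -2.08 on the log2 scale that was -1.79, under 4-fold, after quantile normalization. Slc6a4, the serotonin transporter of raphe neurons, was near background at 0.397 in the subfornical organ against 2.99 in total brain.

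Of 19 measured neuropeptide genes, 3 were at least 4-fold higher in the subfornical organ (1 by the bound) and 4 were at least 4-fold lower (3 by the bound), with a median of -1.16. Gal, the precursor of galanin, was at 54.2 in the subfornical organ, 45.8 in the ependyma, 1.67 in the subcommissural organ, 20.3 and 10.1 in the pineal gland and 5.25 in total brain, a 10.3-fold difference that the ependyma shared. Rln3, the precursor of relaxin-3, and Nmu, that of neuromedin U, were dimmer, with Rln3 at 3.99 in the subfornical organ against 0.286 in total brain, and Nmu at 3.30 in the organ against 0.478 in total brain. Both fall short of 4-fold by their bounds, of at least 3.79-fold for Rln3 and at least 3.14-fold for Nmu. Tac1, the precursor of substance P, was at 0.909 in the subfornical organ, 16.8 in the ependyma, 7.50 in the subcommissural organ, 1.42 and 0.833 in the pineal gland and 52.5 in total brain, at least 49.9-fold lower than total brain. Penk, the precursor of the enkephalins, was at 2.83 in the subfornical organ, 13.5 in the ependyma, 13.7 in the subcommissural organ, 205 and 148.5 in the pineal gland and 46.9 in total brain, 16.5-fold lower than total brain and the lowest of the 6 arrays. Hcrt, the precursor of the orexins of the lateral hypothalamus, was at 25.1 in the subfornical organ against 6.98 in total brain, short of 4-fold.

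The list of receptors for hormones of fluid balance and of energy state also holds enzymes that make such hormones. Of 35 genes with a probe, 13 were near background in both tissues, and of the 22 measured, 2 were at least 4-fold higher in the subfornical organ (9.09%) and 2 at least 4-fold lower (9.09%), near the 7.19% and 9.63% of all measured genes. By the bound there was 1 each way, Aplnr and Ramp3. The median was -0.08, and 0.18 after quantile normalization. Aplnr and Scn7a, given above, were the higher pair by the floored values, and Scn7a falls short of 4-fold by its bound. Ramp3, which turns the calcitonin receptor into an amylin receptor, was at 0.848 in the subfornical organ, 3.43 in the ependyma, 25.6 in the subcommissural organ, 2.36 and 1.46 in the pineal gland and 9.02 in total brain. Prlr, the prolactin receptor, was at 0.423 in the subfornical organ against 2.80 in total brain, at least 2.66-fold lower. Ace, which makes angiotensin II, was at 13.4 in both by its brightest probe, but its log2 difference was -1.22 with the mean of all its probes. Agt, the precursor of angiotensin, was at 2.52 in the subfornical organ and 2.24 in total brain. Tacr3, the receptor of neurokinin B, was at 3.07 in the subfornical organ against 1.06 in total brain. The vasopressin, oxytocin and melanocortin receptor probes Avpr1a, Oxtr and Mc4r were near background in both tissues.

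**Figure D3:**
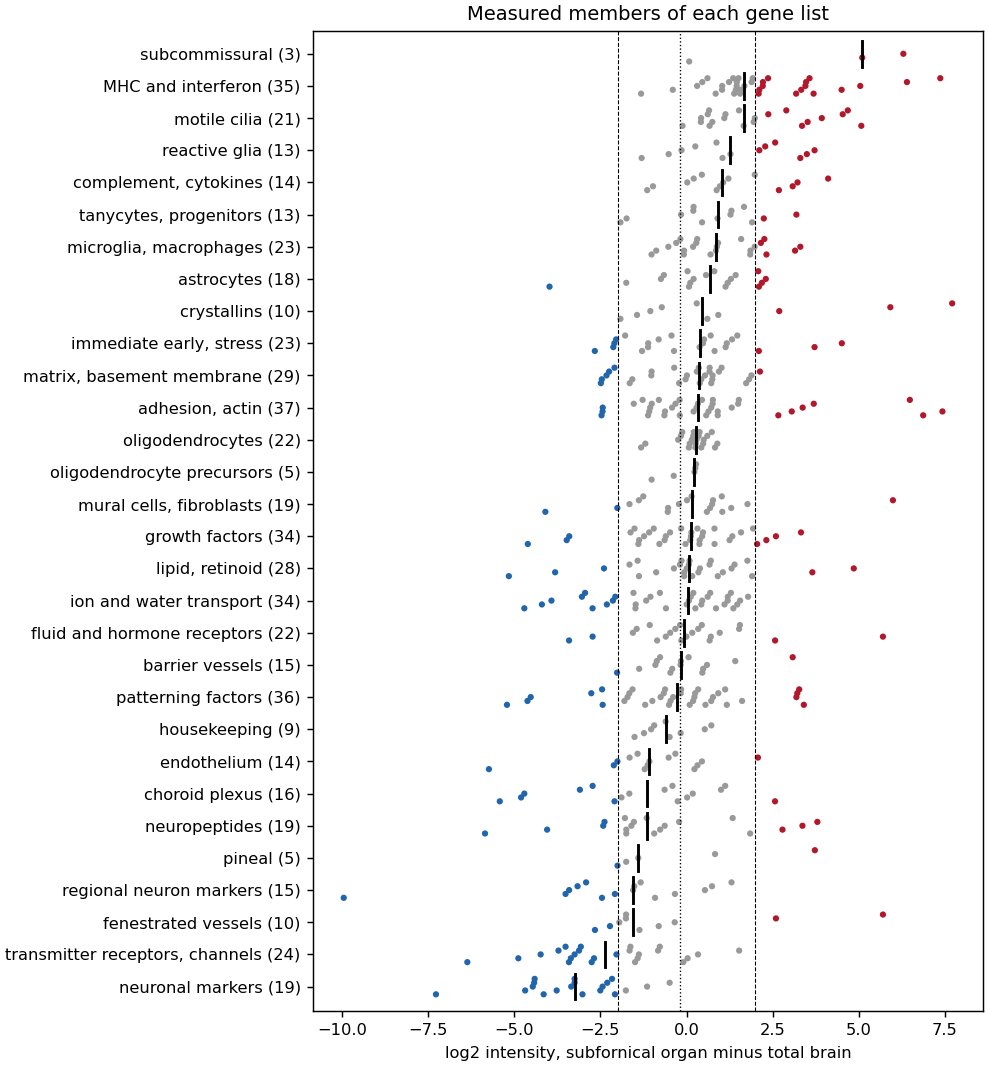
Log2 intensity of the subfornical organ minus total brain for every measured member of the 30 gene lists, with 1 point per gene, the number of measured genes in brackets and the list median as a black bar. Red points are at least 4-fold higher and blue points at least 4-fold lower in the subfornical organ, the dashed lines mark 4-fold and the dotted line the median of all measured genes, -0.20. The subcommissural list, with only 3 measured genes, has the highest median, 5.10, which was 0.18 without the filter on low values. MHC and interferon genes and motile cilia come next with medians of 1.68 and 1.66, and neuronal markers have the lowest, -3.25.

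Oligodendrocyte genes were close to their level in total brain. None of 22 measured genes differed at least 4-fold, and their differences ran between -1.32 and 0.90 with a median of 0.26. Mbp, a main protein of myelin, was at 51.5 in the subfornical organ, 7.15 in the ependyma, 5.11 in the subcommissural organ, 0.209 and 0.205 in the pineal gland and 42.7 in total brain. Mog, on the outer face of myelin, was at 327 in the subfornical organ against 285 in total brain. For 21 of the 22 genes the subfornical organ was above the ependyma, against 57.4% of all measured genes. The summed level was 2342 in the subfornical organ, 641 in the ependyma, 520.4 in the subcommissural organ, 251 and 191 in the pineal gland and 2104 in total brain. The 5 measured genes of oligodendrocyte precursors likewise had a median of 0.23, and Cspg4, which encodes the proteoglycan NG2, was at 44.7 in the subfornical organ against 57.8 in total brain. The organ lies against a myelinated tract, the fornix, and whether fibres of it were captured was not tested.

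Astrocyte genes were mostly above total brain, for 14 of 18 measured. In all 4 were at least 4-fold higher in the subfornical organ (2 by the bound), 1 was at least 4-fold lower and the median was 0.69. Among the 6 arrays, 13 of the 18 were highest in the subfornical organ, against 20.6% of all measured genes. Gfap, the intermediate filament of astrocytes and tanycytes, was at 139.9 in the subfornical organ, 39.3 in the ependyma, 9.59 in the subcommissural organ, 0.553 and 0.568 in the pineal gland and 28.4 in total brain. It was 4.93-fold above total brain, and higher than on any other array. Aqp4, the water channel of astrocyte end feet, was at 199 in the subfornical organ, 104 in the ependyma, 42.0 in the subcommissural organ, 3.37 and 0.615 in the pineal gland and 86.7 in total brain, 2.29-fold above total brain with both probes in that direction. Mlc1, a membrane protein of perivascular astrocyte processes, was at 15.8 in the subfornical organ against 3.68 in total brain. Itih3 was the exception, at 1.14 in the subfornical organ against 18.0 in total brain, while the ependyma had 43.7 (Itih3 encodes a protein that stabilizes the matrix).

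Genes of reactive glia, those that injury or inflammation raises in astrocytes, were at least 4-fold higher for 6 of 13 measured (4 by the bound), with none at least 4-fold lower and a median of 1.28. Hspb1, a small heat shock protein, was at 258 in the subfornical organ, 14.2 in the ependyma, 5.58 in the subcommissural organ, 186 and 191 in the pineal gland and 19.6 in total brain, a 13.2-fold difference. Lcn2, an iron-binding protein of inflammation, was at 32.4 in the subfornical organ, 1.15 in the ependyma, 124.5 in the subcommissural organ, 14.9 and 14.3 in the pineal gland and 2.88 in total brain. Timp1, an inhibitor of matrix proteases, was at 66.4 in the subfornical organ against 11.2 in total brain, and no other array reached it. Several of these genes are also expressed outside astrocytes.

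Genes of tanycytes and neural progenitors were at least 4-fold higher for 2 of 13 measured and lower for none, with a median of 0.90. Six6, a homeobox factor of the hypothalamus, pituitary and eye, was at 5.70 in the subfornical organ and at most 0.720 on any other array, with 0.624 in total brain. Sox2, a factor of neural stem cells and glia, was at 5.50 in the subfornical organ, 5.74 in the ependyma, 9.15 in the subcommissural organ, 0.054 and 0.325 in the pineal gland and 1.16 in total brain. Its difference of 2.24 on the log2 scale was 1.40, under 4-fold, with the mean of all its probes. Vim, the intermediate filament of tanycytes and immature glia, was at 197.5 in the subfornical organ against 81.5 in total brain. Fabp7, a lipid-binding protein of radial glia, was at 162 in the organ against 43.4 in total brain. Crym, also in this list, went the other way, at 4.53 in the subfornical organ against 17.1 in total brain, 3.78-fold lower. Of the 13 measured genes, 10 were above total brain and 3 were below it.

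Genes of motile cilia, the beating hairs of ependymal cells, were intermediate between total brain and the ventricular lining. Of 21 measured, 8 were at least 4-fold higher in the subfornical organ than in total brain and none was at least 4-fold lower. In all, 20 of 21 were above 0, with a median of 1.66, and 1.13 without the filter on low values. Of the 25 with a probe, 9 were under 1.05 in total brain and 4 in the subfornical organ. Some of these genes thus counted as measured only through the subfornical organ. All 21 were below the ependyma and all 21 below the subcommissural organ. Dynlrb2, a light chain of ciliary dynein, was at 157.5 in the subfornical organ, 574 in the ependyma, 490 in the subcommissural organ, 0.387 and 1.84 in the pineal gland and 13.8 in total brain, 11.5-fold above total brain. Drc1, which ties dynein arms in the axoneme, was at 41.2 in the subfornical organ, 248 in the ependyma, 209.5 in the subcommissural organ, 1.30 and 0.401 in the pineal gland and 4.03 in total brain, 10.2-fold above total brain. Tekt1, a filament inside the microtubule wall of cilia, was at 47.1 in the subfornical organ, 233 in the ependyma, 192 in the subcommissural organ, 0.453 and 0.848 in the pineal gland and 6.33 in total brain, 7.45-fold above total brain. The order was the same for these genes: ependyma and subcommissural organ highest, then subfornical organ, then total brain, then pineal gland.

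The summed level of the 25 ciliary genes with a probe was 957 in the subfornical organ, 4377 in the ependyma, 4050 in the subcommissural organ, 59.5 and 71.1 in the pineal gland and 438 in total brain. Foxj1, the master regulator of motile cilia, had a probe near background on every array, the ependyma included, and carries no information here. The part that ependymal cells at the surface of the captured tissue play in the ciliary genes was not tested.

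Promoters of these genes were searched for the X-box, the element bound by the RFX factors that switch on ciliary genes. The full palindrome was searched as GTTNCCNNGGNAAC and one arm of it as GTTGCCA, on both strands, in RefSeq promoters of build GRCr8 that run 250 bases before to 50 after the start of a gene. A match to the arm can lie inside a match to the palindrome. The palindrome was found in 126 of 27457 promoters (0.459%), and of 7 promoters of ciliary genes at least 4-fold higher in the subfornical organ it was found in 1, that of Ttll9. The arm was found in 1222 promoters (4.45%), in 6 of 18 promoters of measured ciliary genes (33.3%) and in 4 of the 7 (57.1%). The stretches around the matches of these 4 genes are shown because they carry the shared letters, in capitals, at different distances from the start. They are read on the strand of the gene. The arm begins 39 bases before the start in Tekt1, 20 before it in Drc1 and 151 before it in Mlf1, and the palindrome begins 36 before it in Ttll9. In Drc1 the capitals are the reverse complement of the arm.
Ttll9, chr3:161889639-161889692, plus strand: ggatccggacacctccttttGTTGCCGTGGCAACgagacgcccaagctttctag
Tekt1, chr10:57479134-57479180, minus strand: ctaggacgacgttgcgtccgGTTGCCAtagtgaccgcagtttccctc
Mlf1, chr2:153958420-153958466, plus strand: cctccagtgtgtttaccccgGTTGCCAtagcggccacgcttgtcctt
Drc1, chr6:31779250-31779296, minus strand: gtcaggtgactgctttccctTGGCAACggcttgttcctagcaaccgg
Ttll9, an enzyme that adds glutamate chains to ciliary tubulin, was at 4.79 in the subfornical organ, 18.3 in the ependyma, 16.1 in the subcommissural organ, 0.625 and 0.357 in the pineal gland and 0.141 in total brain, at least 4.56-fold above total brain. Mlf1 was at 30.1 in the subfornical organ, 164 in the ependyma, 149 in the subcommissural organ, 9.04 and 6.82 in the pineal gland and 5.80 in total brain. A match is a description of letters and shows no binding.

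**Figure D4:**
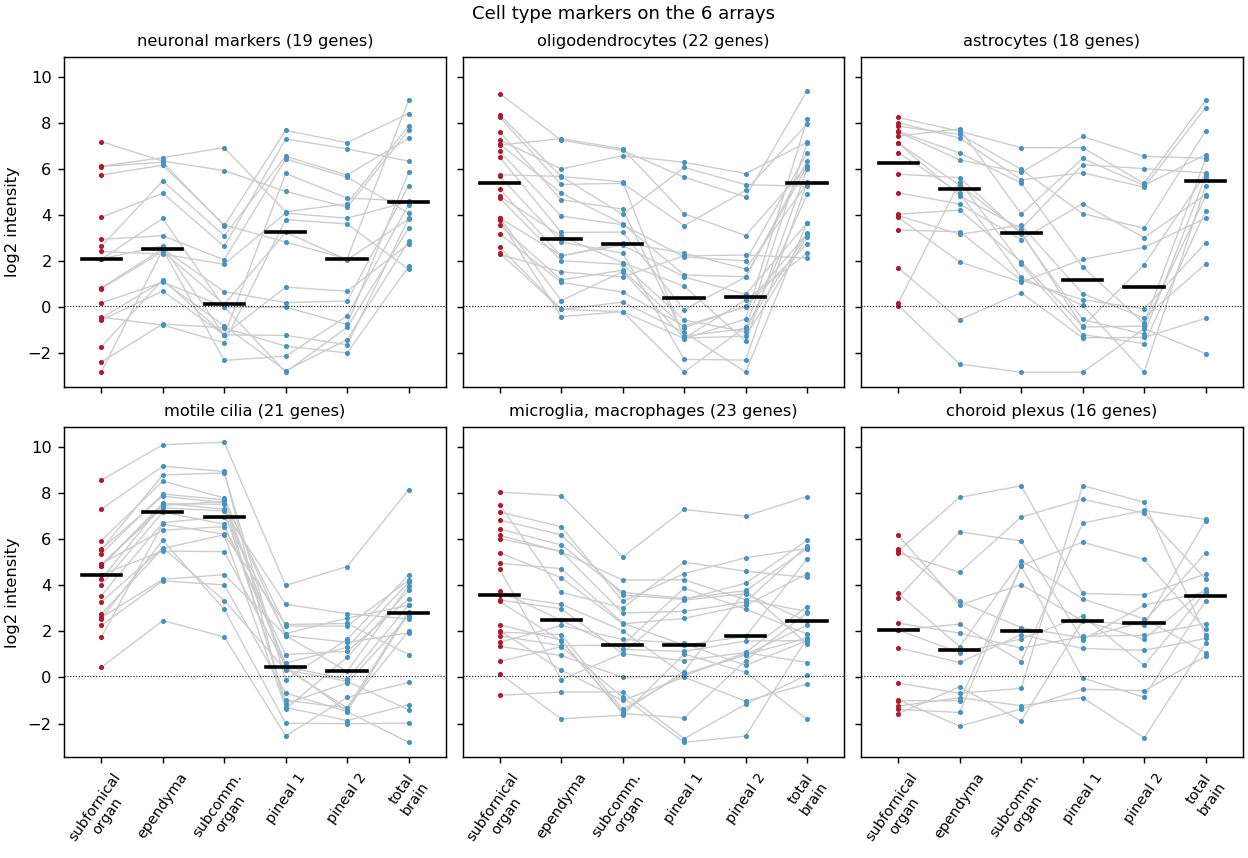
Log2 intensity (vertical axis) of each measured member of 6 cell type lists on the 6 arrays, with thin lines joining the values of 1 gene, black bars at the list median and a dotted line at the pooled median of all probes. In the subfornical organ (red, left) oligodendrocyte genes sit at the level of total brain (right), ciliary genes lie between total brain and the ependyma, and neuronal markers lie below total brain.

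Genes of microglia and macrophages were at least 4-fold higher for 5 of 23 measured (4 by the bound), with none at least 4-fold lower and a median of 0.85. In all, 16 were above total brain and 7 were below it. Among the 6 arrays, 14 of the 23 were highest in the subfornical organ, against 20.6% of all measured genes. Total brain was the highest array for 5, against 33.2% of all measured genes. Gpnmb, a glycoprotein of phagocytes, was at 179.8 in the subfornical organ, 12.9 in the ependyma, 8.15 in the subcommissural organ, 32.1 and 24.4 in the pineal gland and 20.2 in total brain, an 8.89-fold difference. Cd14, a receptor for bacterial lipopolysaccharide, was at 71.7 in the subfornical organ, 43.8 in the ependyma, 18.7 in the subcommissural organ, 18.9 and 10.3 in the pineal gland and 7.26 in total brain, a 9.88-fold difference. Cd68, a lysosomal protein of macrophages, was at 25.8 in the subfornical organ, 0.936 in the ependyma, 2.06 in the subcommissural organ, 10.2 and 12.4 in the pineal gland and 5.39 in total brain. The subfornical organ was the highest array for all 3.

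Of 35 measured genes of interferon response and antigen presentation, 15 were at least 4-fold higher in the subfornical organ (12 by the bound) and none was at least 4-fold lower. In all, 33 of 35 were above 0, and the median was 1.68. Among the 6 arrays, 24 of the 35 were highest in the subfornical organ, against 20.6% of all measured genes. Isg15, a ubiquitin-like protein that interferon induces, was at 328 in the subfornical organ, 43.7 in the ependyma, 6.51 in the subcommissural organ, 67.2 and 40.6 in the pineal gland and 14.5 in total brain, a 22.7-fold difference. Psmb9, a subunit of the immunoproteasome that cuts peptides for MHC class I, was at 82.3 in the subfornical organ, 53.7 in the ependyma, 18.4 in the subcommissural organ, 23.3 and 15.6 in the pineal gland and 2.49 in total brain, a 33.0-fold difference. Mx1, an antiviral GTPase, was at 30.4 in the subfornical organ, 1.48 in the ependyma, 1.32 in the subcommissural organ, 12.1 and 5.51 in the pineal gland and 2.36 in total brain, a 12.9-fold difference. For each of these genes the subfornical organ was the highest array. The log2 difference of Mx1, 3.69 by its brightest probe, was 2.73 with the mean of all its probes.

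Bst2, which tethers budding virus to the cell, was at 30.4 in the subfornical organ, 4.01 in the ependyma, 2.54 in the subcommissural organ, 4.95 and 2.11 in the pineal gland and 2.55 in total brain, an 11.9-fold difference. Ifitm3, which blocks virus entry, was at 31.5 in the subfornical organ, 9.16 in the ependyma, 1.38 in the subcommissural organ, 9.67 and 12.2 in the pineal gland and 2.84 in total brain, an 11.1-fold difference. Usp18, which removes Isg15 from proteins, was at 18.7 in the subfornical organ against 0.221 in total brain by its brightest probe, but only 1 of its 2 measured probes was higher in the subfornical organ. Irf7, a factor that drives interferon genes, was at 10.8 in the subfornical organ, 19.4 and 10.8 in the pineal gland and 1.08 in total brain, so that the pineal gland reached it.

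Some genes of antigen presentation are given here that were named after their values were seen. The invariant chain Cd74, which guides MHC class II, was at 28.2 in the subfornical organ against 9.91 in total brain, and its regulator Ciita was at 2.94 in the organ against 0.631 in total brain, with a bound of at least 2.80-fold. B2m, the light chain of MHC class I, was at 15.9 in the subfornical organ against 5.40 in total brain. Of the class II genes, RT1-Da was at 5.86 in the subfornical organ against 2.86 in total brain, while RT1-Ba was at 8.32 in the organ against 11.0 in total brain. MHC genes of the rat have near-identical copies, so a probe may read several of them. Summed over the 40 genes of the list with a probe, intensity was 2041 in the subfornical organ, 873 in the ependyma, 684 in the subcommissural organ, 1022 and 845 in the pineal gland and 536 in total brain. The macrophage sum moved in the same direction against total brain, with 1097 in the subfornical organ against 576 in total brain, and its part in the interferon values was not tested.

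**Figure D5:**
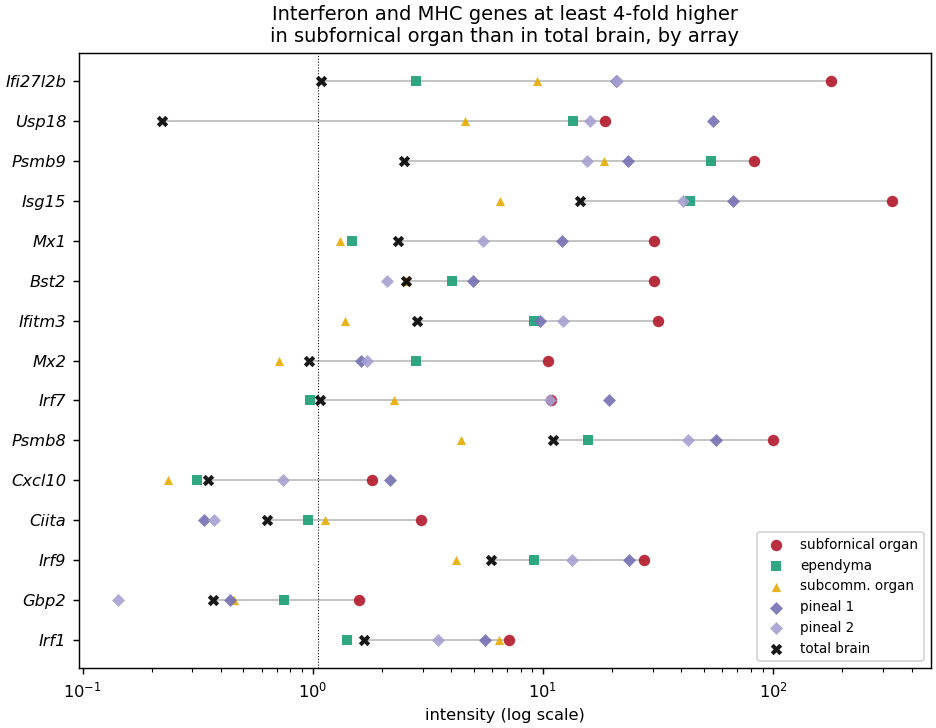
Intensity (horizontal axis, log scale) of the 15 interferon and MHC genes that were at least 4-fold higher in the subfornical organ than in total brain, with 1 symbol per array, a line joining subfornical organ and total brain, and a dotted line at the pooled median of all probes. The subfornical organ is the highest array for most of the genes, and Usp18, Irf7 and Cxcl10 are exceptions at which a pineal gland array lies above it.

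The promoters of the interferon list were searched for the element that interferon regulatory factors bind, written as GAAANNGAAA and read on both strands. It was found in 1034 of 27457 promoters (3.77%) and in 210 of 7616 promoters of measured genes (2.76%). Of 26 promoters of measured genes of the list, 15 held it (57.7%), and of the 10 promoters of those at least 4-fold higher in the subfornical organ 6 held it (60.0%). The share was therefore alike in the members that were past 4-fold and in the list as a whole. The stretches around the first match of 4 of the 6 genes are shown to set the element beside the start of the gene, which lies 131 bases further on in Bst2, 44 in Ifitm3, 69 in Irf7 and 4 in Psmb8. The element is in capitals, on the strand of the gene. In Irf7 and Psmb8 the capitals are its reverse complement, and in Bst2 a pair of matches overlap.
Bst2, chr16:18255069-18255118, minus strand: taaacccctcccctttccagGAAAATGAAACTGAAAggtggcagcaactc
Ifitm3, chr1:205541773-205541822, minus strand: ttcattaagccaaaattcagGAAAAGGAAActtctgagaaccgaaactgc
Irf7, chr1:205800063-205800112, minus strand: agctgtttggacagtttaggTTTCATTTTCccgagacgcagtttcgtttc
Psmb8, chr20:4657006-4657055, minus strand: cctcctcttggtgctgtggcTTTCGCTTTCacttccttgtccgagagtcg
Psmb8, another subunit of the immunoproteasome, was at 99.96 in the subfornical organ, 15.7 in the ependyma, 4.40 in the subcommissural organ, 56.5 and 42.8 in the pineal gland and 11.0 in total brain. These matches too are letters and show no binding.

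Complement and cytokine genes were at least 4-fold higher for 4 of 14 measured and lower for none, with a median of 1.02. Serping1, which inhibits the first complement component, was at 74.8 in the subfornical organ, 12.1 in the ependyma, 7.98 in the subcommissural organ, 89.3 and 51.8 in the pineal gland and 8.01 in total brain, a 9.34-fold difference shared with the pineal gland. C1r, a protease of that component, was at 13.7 in the subfornical organ against 1.62 in total brain, and C2, a later protease of the same cascade, was at 48.5 in the organ against 7.55 in total brain with both probes in that direction. Ccl5, which attracts T cells, was at 9.14 in the subfornical organ and at most 1.48 on any other array, with 0.529 in total brain.

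Of 14 measured endothelial genes, 1 was at least 4-fold higher in the subfornical organ (none by the bound) and 3 were at least 4-fold lower, with a median of -1.10. Pecam1, a junction protein of all endothelium, was at 1.65 in the subfornical organ, 2.86 in the ependyma, 1.02 in the subcommissural organ, 4.68 and 2.44 in the pineal gland and 6.61 in total brain, 4.02-fold lower than total brain. With the mean of all its probes its log2 difference was -1.25, under 4-fold, and after quantile normalization -1.63. Egfl7, an endothelial matrix protein, was at 0.233 in the subfornical organ against 12.4 in total brain. Of 15 measured genes of barrier vessels, 1 was at least 4-fold higher (6.67%) and 1 at least 4-fold lower (none by the bound), near the shares of all genes, with a median of -0.17 that became 0.19 after quantile normalization. Cldn5, the tight junction protein of the blood-brain barrier, was at 89.4 in the subfornical organ, 71.7 in the ependyma, 50.0 in the subcommissural organ, 11.1 and 11.8 in the pineal gland and 167 in total brain, 1.87-fold lower.

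Of 10 measured genes tied to fenestrated or angiogenic vessels, 2 were at least 4-fold higher and 2 at least 4-fold lower, with 1 each way by the bound, and 8 of the 10 were below total brain. The median was -1.56, and -0.34 without the filter on low values. Besides Aplnr, Igfbp3, which binds insulin-like growth factors, was at 2.70 in the subfornical organ, 20.3 and 11.8 in the pineal gland and 0.447 in total brain, at least 2.57-fold above total brain. Cav1, the main protein of caveolae, was at 6.64 in the subfornical organ against 17.1 in total brain, and Vegfa, the growth factor that keeps fenestrae open, was at 8.85 in the organ against 15.5 in total brain.

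Among mural cell and fibroblast genes, 1 of 19 was at least 4-fold higher (5.26%), 2 were at least 4-fold lower (10.5%), both near the shares of all genes, and the median was 0.15. Ogn, a proteoglycan of the meninges and other connective tissue, was at 9.05 in the subfornical organ, 1.84 in the ependyma, 0.603 in the subcommissural organ, 10.7 and 5.78 in the pineal gland and 0.055 in total brain, at least 8.61-fold above total brain. Rgs5, a marker of pericytes, was at 0.302 in the subfornical organ against 5.18 in total brain, and Col1a1, a collagen of fibroblasts, was at 7.71 in the organ against 11.3 in total brain. The log2 difference of Col1a1, -0.54, was 0.45 with the mean of all its probes, and 1 of its 2 measured probes was higher in the subfornical organ.

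Of 29 measured genes of matrix and basement membrane, 1 was at least 4-fold higher and 5 were at least 4-fold lower (2 by the bound). The median was 0.36, and -0.01 without the filter on low values. Nid2, which links laminin and collagen in basement membranes, was at 35.9 in the subfornical organ, 0.615 in the ependyma, 9.85 in the subcommissural organ, 37.3 and 23.3 in the pineal gland and 8.17 in total brain, and both of its probes were higher than in total brain. Its log2 difference was 2.13, and 1.95, under 4-fold, with the mean of both. Timp2, another inhibitor of matrix proteases, was at 36.0 in the subfornical organ against 9.75 in total brain. Acan, the core of perineuronal nets, was at 1.41 in the subfornical organ against 6.67 in total brain, under 4-fold after quantile normalization (-1.84 on the log2 scale). Ncan, a proteoglycan of the neural matrix, was at 0.449 in the organ against 2.25 in total brain, at least 2.14-fold lower.

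Adhesion and actin genes were at least 4-fold higher for 7 of 37 measured (6 by the bound) and lower for 3 (1 by the bound), with a median of 0.33. Itgb4, the integrin of hemidesmosomes, was at 78.6 in the subfornical organ, 61.9 in the ependyma, 4.48 in the subcommissural organ, 7.42 and 7.50 in the pineal gland and 0.671 in total brain. It was at least 74.8-fold above total brain and both of its probes were higher. Plec, the linker that anchors intermediate filaments to hemidesmosomes, was at 36.9 in the subfornical organ, 14.8 in the ependyma, 6.64 in the subcommissural organ, 2.23 and 2.54 in the pineal gland and 3.56 in total brain. It was 10.4-fold above total brain by its brightest probe, and by 0.76 on the log2 scale, under 4-fold, with the mean of all its probes. Pdlim3, an actin-associated protein of muscle, was at 55.8 in the subfornical organ, 19.4 in the ependyma, 14.9 in the subcommissural organ, 19.5 and 21.8 in the pineal gland and 0.622 in total brain. Svil, a membrane-bound actin organizer, was at 24.5 in the subfornical organ, between 4.01 and 5.93 in the other dissected tissues and at 0.038 in total brain. The subfornical organ was highest for all 4 genes, and total brain was lowest for all but Plec.

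Crystallins other than Crygs were measured for 9 genes. In total 3 of 10 were at least 4-fold higher and none was at least 4-fold lower, with a median of 0.45. Cryba4 was at 11.4 in the subfornical organ, 3.60 in the ependyma, 0.279 in the subcommissural organ, 0.225 and 0.838 in the pineal gland and 0.189 in total brain, at least 10.9-fold above total brain. Crybb1 was at 13.1 in the subfornical organ, 3.06 in the ependyma, 1.21 in the subcommissural organ, 0.463 and 0.816 in the pineal gland and 2.03 in total brain, 6.47-fold above total brain. Both are beta crystallins of the lens, and both were highest in the subfornical organ and next in the ependyma.

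Ion and water transport genes had a median of 0.04, with 9 of 34 measured at least 4-fold lower (6 by the bound) and none at least 4-fold higher. Slc12a5, the chloride exporter of mature neurons, was at 1.84 in the subfornical organ, 4.81 in the ependyma, 2.77 in the subcommissural organ, 35.3 and 22.1 in the pineal gland and 27.8 in total brain, 15.1-fold lower than total brain. Atp1b1, the sodium pump subunit common in neurons, was at 81.7 in the subfornical organ against 541.5 in total brain, whereas Atp1b2, the subunit of glia, was at 139.0 in the organ against 56.9 in total brain. Fxyd1, a regulator of the sodium pump, was at 591 in the subfornical organ against 201 in total brain, and Scnn1a, a subunit of the epithelial sodium channel, was at 2.42 in the organ against 0.700 in total brain. Atp1b1 and Atp1b2 thus differed from total brain in opposite directions, Atp1b2 by 1.29 on the log2 scale, under 4-fold. Atp1b2 was named after its value was seen, and this pair does not stand for all pump subunits of neurons and glia.

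Markers of choroid plexus, which lies close to the organ, were at least 4-fold lower for 6 of 16 measured (4 by the bound) and higher for 1. The median was -1.15, with -0.52 without the filter on low values and -0.45 with the filter at the 75th percentile. Of the 22 with a probe, 6 were under 1.05 in total brain and 12 in the subfornical organ. Some of these markers thus counted as measured only through total brain. Ttr, the thyroid hormone carrier made in bulk by choroid plexus, was at 4.17 in the subfornical organ, 4.97 in the ependyma, 1.61 in the subcommissural organ, 104 and 152 in the pineal gland and 116 in total brain. It was 27.9-fold lower than in total brain. Kcnj13, a potassium channel of the plexus, was at 0.382 in the subfornical organ, 28.5 in the subcommissural organ and 9.98 in total brain. Of 5 measured pineal genes, Pax4, a homeobox factor of the gland and of pancreatic islets, was at 10.6 in the subfornical organ, 3.28 in the ependyma, 1.42 in the subcommissural organ, 131 and 124 in the pineal gland and 0.797 in total brain, while Gngt1, a G protein subunit of photoreceptors and pinealocytes, was at 0.423 in the subfornical organ, 444 and 531 in the pineal gland and 1.42 in total brain.

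Patterning factors had 4 of 36 measured at least 4-fold higher and 6 lower (2 by the bound). The median was -0.28, and 0.16 with the filter at the 75th percentile. Id1 and Id3 block basic helix-loop-helix factors and respond to bone morphogenetic proteins. Id3 was at 183 in the subfornical organ, 33.5 in the ependyma, 18.2 in the subcommissural organ, 47.8 and 40.6 in the pineal gland and 19.7 in total brain, a 9.29-fold difference with both probes in that direction. Id1 was at 59.6 in the subfornical organ, 13.4 in the ependyma, 11.8 in the subcommissural organ, 16.8 and 8.38 in the pineal gland and 6.17 in total brain, a 9.66-fold difference. The effectors of hedgehog signalling were split, with Gli2 at 4.33 in the subfornical organ against 0.408 in total brain, and Gli1 at 0.129 in the organ against 3.49 in total brain, at least 3.32-fold lower. Foxp2, a factor of deep cortical and striatal neurons, was at 0.142 in the subfornical organ against 3.27 in total brain, at least 3.11-fold lower.

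Growth factor genes were at least 4-fold higher for 4 of 34 measured (11.8%) and lower for 3 (8.82%), with a median of 0.12. By the bound none was at least 4-fold higher, and the share lower was near that of all genes. Wnt5a, a ligand of non-canonical Wnt signalling, was at 3.30 in the subfornical organ and at most 0.805 elsewhere, with 0.329 in total brain, at least 3.14-fold above total brain. Fgf1, a fibroblast growth factor of neurons, was at 0.325 in the subfornical organ, 9.10 and 8.44 in the pineal gland and 7.93 in total brain. Tgfb3, a cytokine of the transforming growth factor family, was at 42.9 in the subfornical organ against 11.3 in total brain, just short of 4-fold.

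Lipid and retinoid genes had a median of 0.08, with 2 of 28 measured at least 4-fold higher (7.14%) and 3 lower (10.7%, and 1 gene by the bound), near the shares of all genes. Lcat, which esterifies cholesterol in lipoproteins and is made by astrocytes, was at 50.7 in the subfornical organ, 10.6 in the ependyma, 5.54 in the subcommissural organ, 3.55 and 2.35 in the pineal gland and 4.03 in total brain, a 12.6-fold difference. Lrp2, an endocytic receptor for lipoproteins and leptin, was at 6.29 in the subfornical organ, 2.76 in the ependyma, 3.48 in the subcommissural organ, 1.54 and 0.795 in the pineal gland and 0.217 in total brain. Ptgs2, the inducible enzyme of prostaglandin synthesis, was at -0.048 in the subfornical organ against 5.07 in total brain.

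Immediate early and stress genes, which can respond to handling of the tissue, had 3 of 23 measured at least 4-fold higher (2 by the bound), 4 lower and a median of 0.38, which was -0.44 with the filter at the 75th percentile. Fos was at 6.32 in the subfornical organ, 8.82 in the ependyma, 2.15 in the subcommissural organ, 15.7 and 17.6 in the pineal gland and 27.0 in total brain, 4.27-fold lower with both probes in that direction. Egr1 was at 12.9 in the subfornical organ against 56.3 in total brain. With the mean of all probes Fos (-1.82 on the log2 scale) and Egr1 (-1.03) were under 4-fold, as they were after quantile normalization. Arc was at 2.61 in the organ against 16.5 in total brain. Egr1 and Arc are activity-dependent genes of neurons. Crem, a factor of the cAMP response, was at 7.83 in the subfornical organ and at most 2.67 elsewhere, with 0.344 in total brain. Of 9 housekeeping genes none differed at least 4-fold, and their median was -0.61, with Gapdh at 555 in the subfornical organ, 578 in the ependyma, 375 in the subcommissural organ, 658 and 624.5 in the pineal gland and 1133 in total brain. Total brain was thus the brightest array for Gapdh, and the 75th percentile of all intensities was 6.31 in the subfornical organ, against 7.93 in total brain.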

How the data were processed

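The deposited table holds 1 linear intensity per probe and array, as the authors processed it; the scanner, software, background correction and scaling are not given in the sources used here. Per the labels' protocols, 3 ng of total RNA per sample was amplified by in vitro transcription and labelled. The scale was read from the values, of which 426 to 584 per array are negative, and -9999 was taken as missing. Array medians lay between 1.04 and 1.07. Probes were named from the platform annotation.

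Values were floored at 0.142 and log2 was taken with Python 3.11.15, numpy 2.4.6 and pandas 2.3.3, with no further scaling. A gene was the probe with the highest mean log2 over 6 arrays, among probes with a value on all of them. A difference of at least 4-fold was counted without a test. The steps were tested on simulated data. The sources give no replicate of either tissue, and only the pineal gland pair gives a spread.

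The members, the 30 lists (927 genes, 750 with a probe and 562 measured) and the settings were chosen with earlier results of these data known. Genes named were the 25 furthest in each direction, up to 8 per list and fixed markers, of which the text gives a part. Ace, Agt, Atp1b2, Avpr1a, B2m, Cav1, Cd74, Ciita, Cxcl10, Eno2, Fabp7, Fxyd1, Hcrt, Irf7, Mc4r, Mog, Oxtr, Psmb8, RT1-Ba, RT1-Da, Scnn1a, Tacr3, Tgfb3, Thy1, Timp2, Vegfa and Vim were added after their values were seen. Atp6v0a2, Atp6v0a4, Atp6v0e1, Cox6a2, Cox6b2, Rab3a, Rab6b, S100a4 and Slc30a3, named in the other observations, also lie outside that rule.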

Additional observations from a re-analysis of the deposited data

Results flagged for a closer look

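Probes that the annotation does not list have no gene name here, and the comparison above leaves them out. Of 8829 such probes that were measured, 969 (11.0%) were at least 4-fold higher in the subfornical organ than in total brain and 1250 (14.2%) were at least 4-fold lower. The brightest value of the subfornical organ array belonged to one of them, probe 203059. It was at 1678 in the subfornical organ, 0.547 in the ependyma, 0.839 in the subcommissural organ, 0.781 and 1.03 in the pineal gland and 0.636 in total brain, so that it was near background on every other array. Probe 19035 was at 25.6 in the subfornical organ, 3.80 in the ependyma, 27.3 in the subcommissural organ, 5.02 and 8.44 in the pineal gland and -0.386 in total brain. In the other direction, probe 223109 was at 0.339 in the subfornical organ against 43.0 in total brain, and probe 103048 was at 0.481 in the subfornical organ against 58.1 in total brain. No replicate of either tissue bears on these values.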

How the results depend on the processing

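The settings tried were quantile normalization, a floor at the 25th percentile, no filter, a filter at the 75th percentile, the mean of all probes of a gene, and low values set at the pooled median of 1.05. The counts of 659 higher and 883 lower genes became 303 and 563 with the stricter filter, which leaves fewer genes. With low values set at the median 388 genes were higher and 654 lower, since dim genes then lose part of their difference. Quantile normalization gave 731 higher and 727 lower genes, so that 50.1% of the genes past 4-fold were higher, against 42.7% before it. The other settings gave between 577 and 816 higher and between 729 and 978 lower genes. The median of all genes ran between -0.26 and 0.06.

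Of 180 recomputed list medians, 168 moved by less than the standard deviation of the pineal gland pair (0.77). The median of the 5 pineal genes, -1.40, turned to 0.50 without the filter and to 3.73 with the stricter one. With low values set at the median, neuronal markers had a median of -2.67, receptors and channels -1.64, interferon and MHC genes 1.51 and motile cilia 1.66. The neuronal median was -2.37 with the mean of all probes, and that of complement and cytokine genes was 0.21 without the filter. The matrix median of 0.36 was -0.01 without the filter and close to 0 with the mean of all probes. That of immediate early and stress genes, 0.38, was -0.44 with the stricter filter and -0.05 with the mean of all probes. The patterning median of -0.28 was 0.16 with the stricter filter, and the ion and water median of 0.04 was -0.08 with the mean of all probes. The fluid receptor and barrier vessel medians changed sign after quantile normalization, and none of these lists has a settled direction. The interferon median of 1.68 was above the cilia median of 1.66 but below it after quantile normalization (1.94 against 2.00), so the order of the pair is not settled. Of 112 named genes past 4-fold, 106 stayed past it after quantile normalization, 100 with the mean of all probes and 98 with low values at the median, and none changed direction. The mean of all probes brought Aplnr, Ciita, Egr1, Fos, Igfbp3, Nid2, Pecam1, Plec, Prlr, Slc30a3, Sox2 and Thy1 under 4-fold, and quantile normalization Acan, Drd2, Egr1, Fos, Pecam1 and Tph1. With the mean of all probes the difference of Svil, 7.43, was 3.26, that of Usp18 came to 2.34, that of Ttll9, 5.08, was 2.36, that of Camk2a, -7.28, was -4.67, and that of Gabrb2, -6.36, was -3.41. The causes were not tested. Among measured genes past 4-fold with several measured probes, 51 of 251 had a probe on the other side. No paired analysis was possible because each tissue has 1 array.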

Other observations

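Genes that share a stem in their symbol were grouped over all measured genes, a grouping chosen after the data were seen, and their counts stand beside the 7.19% of all measured genes that were at least 4-fold higher and the 9.63% that were at least 4-fold lower. Of 52 genes of the Rab stem, which label membrane compartments, none was at least 4-fold higher in the subfornical organ and 8 were at least 4-fold lower, with a median of -0.22. Rab3a, the Rab protein of synaptic vesicles, was at 8.86 in the subfornical organ against 46.0 in total brain, and Rab6b, a neuronal form of a Golgi Rab, was at 4.20 in the organ against 71.1 in total brain. Of 196 solute carriers, 15 were at least 4-fold higher and 30 lower, with a median of -0.14. Slc30a3, which loads zinc into synaptic vesicles, was at 17.0 in the subfornical organ against 134.6 in total brain.

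Of 55 genes of the Atp stem, which hold ion pumps and subunits of ATP synthase, 5 were at least 4-fold higher and 7 lower, with a median of -0.56. The subunits given next were chosen after their values were seen. Of the small e subunits of the proton pump that acidifies vesicles, Atp6v0e1, found in many tissues, was at 24.3 in the subfornical organ against 2.77 in total brain. Atp6v0e2, common in brain, was at 1.14 in the subfornical organ against 75.1 in total brain. Of its a subunits, Atp6v0a4, known from the kidney, was at 16.6 in the subfornical organ against 1.05 in total brain, and Atp6v0a2 was at -0.028 in the organ against 14.0 in total brain. Of 18 genes of the Cox stem, which hold subunits and assembly factors of cytochrome c oxidase, 4 were at least 4-fold higher and none was lower, with a median of 0.34. Cox6a2, the form of heart and skeletal muscle, was at 18.6 in the subfornical organ against 3.09 in total brain, and Cox6b2, known from testis, was at 32.9 in the organ against 6.19 in total brain. S100a4, a calcium-binding protein of white matter astrocytes and fibroblasts, was at 134 in the subfornical organ against 11.4 in total brain.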
